A study of Homo sapiens with 48 samples.

Results

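SYT6, PPP1R1B and LECT1, genes better known from nerve and cartilage than from stem cells, were followed across undifferentiated human embryonic stem cells (hESC), 3 directed lineages and embryoid bodies. They were taken as every probe pair on the panel that carries 1 of these gene symbols, which gave 7 of 1113 probes and 3 of 452 genes. SYT6 has probes 717 and 996, PPP1R1B has 568 and 569, and LECT1, whose current symbol is CNMD, has 422, 423 and 424. The genes were chosen by their high measured level in hESC in earlier results of these data, on probes SYT6 996 and LECT1 424 in endoderm against hESC and PPP1R1B 568 in CEPT EB against hESC. Levels in hESC against any other group are therefore given as a description, with no test.

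All 48 libraries came from WA09, 1 established hESC line of normal genotype, and were measured by RASL-Seq, in which pairs of probes are ligated on captured polyA RNA and the ligated product is amplified and counted. The hESC group was untreated (4 libraries). Ectoderm was induced over 6 days in E6 medium with the BMP receptor inhibitor LDN-193189, at 100 nM, and the TGF-beta receptor inhibitor A83-01, at 2 µM (4 libraries). Mesoderm and endoderm were made with commercial kits over 5 days, the STEMdiff Mesoderm Induction Medium and the STEMdiff Definitive Endoderm Kit (4 libraries each). Embryoid bodies (EB), aggregates that differentiate without a directing factor, were grown from 20000 dissociated cells per well for 7 days in E6 medium. Their first 24 hours were spent either in the CEPT cocktail, a mixture of small molecules that protects dissociated cells (16 libraries, CEPT EB), or in the ROCK inhibitor Y-27632 (16 libraries, Y27 EB). The labels do not say whether libraries of a group came from separate cultures, so p-values measure the spread between libraries, which may be technical. Groups also differ in culture days and in culture format, which cannot be told apart from lineage.

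SYT6 encodes synaptotagmin 6, a membrane protein of a family that acts in the docking and fusion of vesicles, best studied in neurons. PPP1R1B encodes a small protein that is phosphorylated on dopamine and cAMP signals and then inhibits protein phosphatase 1, and it is known above all from the dopamine-responsive neurons of the striatum. LECT1 encodes chondromodulin, a glycoprotein of the cartilage matrix that inhibits the growth of blood vessels and supports chondrocytes.

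The 3 genes had a clear level in hESC and parted in the lineages. PPP1R1B had no window among the RefSeq start windows used here, so sequences before a start site are shown for SYT6 and LECT1. Each is the 250 bases upstream of a RefSeq start on GRCh38.p14, read 5′ to 3′ on the gene's minus strand, at chr1:114153870-114154119 for SYT6 and chr13:52739821-52740070 for LECT1 (CNMD). Capitals mark matches on either strand to the octamer ATGCAAAT, the TATA box TATAAA, the CCAAT box CCAAT, the E-box CACGTG or the GC box GGGCGG. None of these matches overlaps another.
SYT6: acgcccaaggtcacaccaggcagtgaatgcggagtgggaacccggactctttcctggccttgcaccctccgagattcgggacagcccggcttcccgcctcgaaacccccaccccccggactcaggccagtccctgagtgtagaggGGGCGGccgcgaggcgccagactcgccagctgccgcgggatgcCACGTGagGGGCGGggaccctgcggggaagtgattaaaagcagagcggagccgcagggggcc
LECT1: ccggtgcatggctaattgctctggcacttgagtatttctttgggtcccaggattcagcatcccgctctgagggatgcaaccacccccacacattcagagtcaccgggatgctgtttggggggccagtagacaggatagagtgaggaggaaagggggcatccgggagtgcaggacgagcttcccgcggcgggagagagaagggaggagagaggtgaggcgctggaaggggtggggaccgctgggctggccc
SYT6 has 3 start windows in the RefSeq table, of which the most upstream is shown. It held GGGCGG at 2 places and CACGTG at 1, and had a GC content of 69.2%. The other SYT6 windows held GGGCGG at 3 places and at 1, and no CACGTG. The LECT1 window held none of the 5 motifs and had a GC content of 62.0%. Over 35116 RefSeq windows of the same length, GGGCGG was found in 42.6% and CACGTG in 6.34%. ATGCAAAT, a motif read by POU factors, was found in 1.63% of them. A match is a string of letters and not a measured site. The files used here hold no binding or chromatin data for these windows.

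The probes lie at different places in their transcripts. By the paired GENCODE 29 transcript, LECT1 422 is in coding exon 1 at position 105 of NM_007015, LECT1 423 at position 997 in the coding part of exon 7, and LECT1 424 at position 1264 in the 3′ UTR part of exon 7. Both PPP1R1B probes are in the 3′ UTR in exon 7, at position 1117 of NM_181505 (568) and 1667 of NM_032192 (569). Both SYT6 probes are in the 3′ UTR in exon 8, at position 2310 of NM_205848 (717) and 3293 of NM_001270805 (996). The genes span chr13:52703264-52739820 (CNMD, minus strand), chr17:39626707-39636624 (PPP1R1B, plus strand) and chr1:114089292-114153869 (SYT6, minus strand) on GRCh38.p14. Probes differ in efficiency, so levels are compared between groups for 1 probe or gene and not between genes.

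Library totals ran from 379810 reads (Y27 EB replicate 15) to 5577868, with a median of 3583316. Levels are in CPM, reads scaled to a common library size, with TMM factors that correct for differences in RNA composition. The labels were checked on marker genes listed for each control group, by those with a probe past the filter on low counts. These were 4 of 4 listed for hESC, 4 of 5 for ectoderm, 3 of 8 for mesoderm and 3 of 5 for endoderm. Among the control groups, 3 of 4 hESC markers, 3 of 4 ectoderm markers, 3 of 3 mesoderm markers and 3 of 3 endoderm markers were highest in their own group. POU5F1, 1 of those hESC markers, had only 9.69 CPM in hESC. SOX2, listed for hESC, was highest in ectoderm, and OTX2, listed for ectoderm, was highest in endoderm. The reads are PCR products without molecular identifiers, and in bulk cultures fewer cells with a transcript and less of it per cell cannot be told apart.

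In hESC all 7 probes were above every library of each other group. This held for 35% of the 1016 probes past the filter against ectoderm, 31.1% against mesoderm, 33% against endoderm, 28.5% against CEPT EB and 27.9% against Y27 EB. Against all 5 groups at once it held for 85 probes (8.37%). Because the genes were chosen for this height, the 7 of 7 is not read against these shares. The group in which each transcript stayed highest outside hESC was only partly open, since the choice favoured low levels in endoderm (SYT6 and LECT1) and in CEPT EB (PPP1R1B). It was ectoderm for SYT6, mesoderm for PPP1R1B and embryoid bodies for LECT1.

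**Figure D1:**
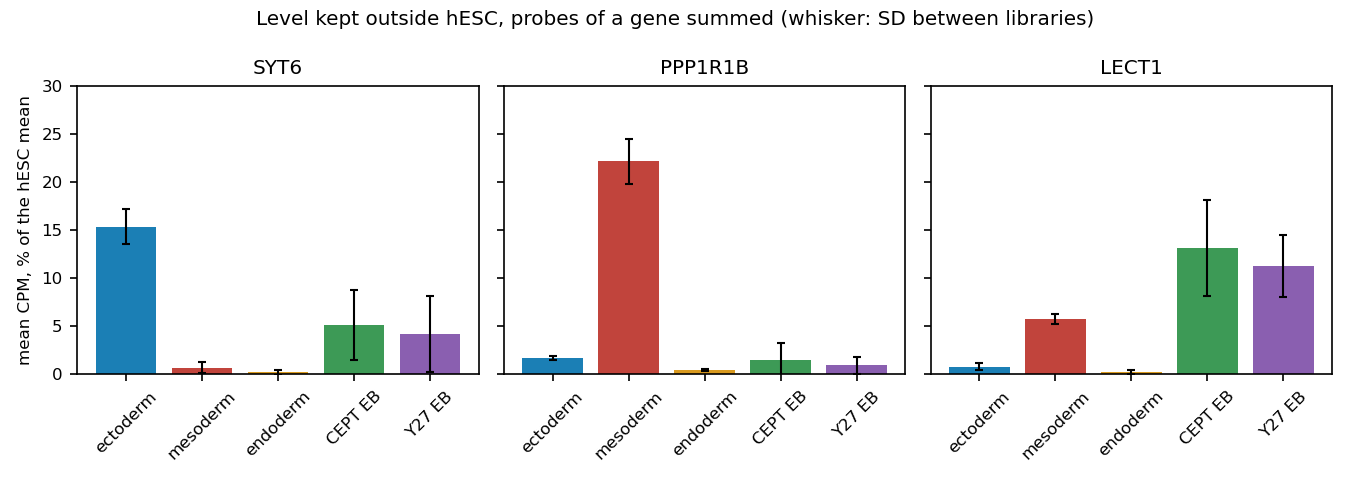
Mean CPM of each gene, probes summed, as a percent of its hESC mean in 5 groups (bars start at 0; whiskers are the SD between libraries; 4 libraries per lineage, 16 per EB arm). SYT6 kept most in ectoderm (15.3%), PPP1R1B in mesoderm (22.1%) and LECT1 in CEPT EB (13.1%) and Y27 EB (11.3%).

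SYT6, the synaptotagmin, was read 165, 169, 131 and 153 times in the 4 hESC libraries with probe 996, and 157, 182, 132 and 133 times with probe 717. In ectoderm probe 996 had 39, 30, 25 and 41 reads and probe 717 had 31, 38, 21 and 44. All ectoderm libraries lay below all hESC libraries and above all mesoderm and endoderm libraries. In mesoderm the reads were 3, 0, 3 and 1 (996) and 3, 1, 0 and 0 (717). In endoderm they were 1, 0, 0 and 0 (996) and 0, 2, 0 and 0 (717). These lineages were thus at or close to no reads, at library totals of at least 2358531. Scaled to CPM, probe 996 had 81.9 ± 7.57 in hESC and 12.5 ± 2.07 in ectoderm (SD, n = 4 each), a ratio of means of 6.53. For probe 717 the ratio of hESC to ectoderm was 6.51, so both probes of the gene gave nearly the same value. Against endoderm the ratio of pooled, scaled reads was 758 for 996 (1 endoderm read; 95% counting interval 136 to 29988.5) and 370 for 717 (2 reads; 102 to 3066).

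Ectoderm against mesoderm was tested with edgeR's quasi-likelihood test over all probes (Benjamini-Hochberg adjusted). SYT6 was higher in ectoderm with both probes. The log2 fold change was 5.16 ± 0.46 (SE) for 717 (adjusted p = 4.80e-09) and 4.46 ± 0.39 for 996 (adjusted p = 4.32e-09), with no overlap between libraries. The size for 717 rests on 4 mesoderm reads in all. With a library left out it ran from 4.71 to 6.40, past the upper limit of its interval (6.13). The ± 0.46 therefore understates the uncertainty of this size. The value of 996 ran from 4.01 to 4.86, within its interval (3.64 to 5.29), and both calls held each time. In this comparison 80.2% of the 903 probes tested passed, and 42% of the 903 were higher in ectoderm.

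In embryoid bodies SYT6 was low and uneven. Probe 717 ran from 0 to 61 reads in CEPT EB (median 13) and from 0 to 55 in Y27 EB (median 13.5), with 4 libraries at 0 in each arm. Probe 996 ran from 0 to 44 reads (median 9, 2 libraries at 0) and from 0 to 86 (median 11, 5 libraries at 0). The highest was Y27 EB replicate 13, with 86 reads of 996 and 50 of 717, whose summed level of 26.6 CPM overlapped ectoderm (lowest library 21.4). The other EB libraries of either arm lay below ectoderm in summed level. Against ectoderm, SYT6 996 in Y27 EB was lower by a log2 fold change of -1.94 ± 0.88 (edgeR adjusted p = 0.0478), and SYT6 717 gave -1.82 ± 0.96 (adjusted p = 0.0876). The call for 996 ended without any 1 of the 4 ectoderm libraries or of Y27 EB replicates 2, 3, 4, 5, 12, 14, 15 and 16 (log2 fold change -1.97 to -1.78, adjusted p 0.0513 to 0.116). It also ended with upper quartile factors (-1.85), with library totals alone (-1.42) and without the filter on low counts (-1.94). With both probes summed before the fit the difference was -1.86 (edgeR adjusted p = 0.0062). In CEPT EB neither probe passed against ectoderm (-1.40, adjusted p = 0.197 and -1.81, adjusted p = 0.0641), and the sum did (-1.55, edgeR adjusted p = 0.0233). The value of 996 passed without CEPT EB replicate 8 (-2.01, edgeR adjusted p = 0.0420), and also with median-ratio factors (-1.97), reference gene scaling (-2.03), DESeq2 (-1.98) and 1 fit of all 48 libraries (-1.79).

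Against mesoderm, SYT6 717 was higher in both arms, by 3.38 ± 1.46 in Y27 EB (edgeR adjusted p = 0.0377) and 3.80 ± 1.48 in CEPT EB (edgeR adjusted p = 0.0215). These calls rest on 4 mesoderm reads in all. They ended without mesoderm replicate 2 (3.30 and 3.72), 3 (2.83 and 3.21) or 4 (2.94 and 3.36), and in Y27 EB with median-ratio size factors (3.17, edgeR adjusted p = 0.0505). SYT6 996 gave 2.44 ± 1.23 in Y27 EB (edgeR adjusted p = 0.0769) and 2.56 ± 1.24 in CEPT EB (adjusted p = 0.0628). It passed in CEPT EB without replicate 2 (2.66) or 11 (2.65), and in both arms with DESeq2 (2.27 and 2.41) or reference gene scaling (3.03 and 3.14). The summed gene was higher in both arms, by 2.55 (edgeR adjusted p = 0.00869) and 2.86 (adjusted p = 0.00374).

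PPP1R1B, the phosphatase inhibitor, was read 459, 620, 356 and 399 times in hESC with probe 569 and 56, 109, 52 and 82 times with 568. Mesoderm had 137, 135, 91 and 177 reads of 569 and 24, 39, 25 and 41 of 568. Every mesoderm library was below every hESC library and above every library of ectoderm, endoderm and both EB arms in scaled level. In ectoderm the counts of 569 were 10, 12, 9 and 12 and those of 568 were 1, 4, 0 and 2. In endoderm they were 2, 3, 2 and 3 for 569 and 0, 0, 0 and 1 for 568. Ectoderm was low and endoderm lower still, with the gene's summed mean at 1.66% and 0.418% of hESC. In CPM probe 569 had 238 ± 14.7 in hESC and 49.5 ± 6.23 in mesoderm (SD, n = 4 each), a ratio of 4.82, and probe 568 a ratio of 3.26. Ratios of hESC to ectoderm were 59.5 (569) and 64.4 (568). For endoderm the pooled ratio of 569 was 225, and that of 568 was 367 on 1 endoderm read (95% counting interval 65.3 to 14533.7).

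Mesoderm exceeded the other lineages in the tests. Ectoderm against mesoderm gave -3.31 ± 0.16 for PPP1R1B 569 (edgeR adjusted p = 6.01e-13) and -3.79 ± 0.43 for 568 (adjusted p = 1.72e-07), where 38.2% of all probes were lower in ectoderm. Mesoderm against endoderm gave 5.31 ± 0.21 for 569 (edgeR adjusted p = 2.07e-14) and 6.07 ± 0.60 for 568 (adjusted p = 2.06e-08), with 76.2% of all probes called either way. The size for 568 rests on 1 endoderm read. With a library left out it ran from 5.78 to 7.66, past the upper limit of its interval (7.32). The ± 0.60 therefore understates the uncertainty of this size, though the call held each time. The gene thus fell in the opposite order to SYT6 between ectoderm and mesoderm. Ectoderm against endoderm gave 2.00 ± 0.29 for 569 (edgeR adjusted p = 8.62e-06) and 2.27 ± 1.01 for 568 (adjusted p = 0.0459), where 79.7% of all probes passed. The call for 568 rests on 7 reads against 1, and the probe reached the filter through hESC and mesoderm, not through the 2 groups compared. It ended without ectoderm replicate 2 (1.61) or 4 (2.30) and without endoderm replicate 1 (1.99), 2 (1.99) or 3 (2.04), and neither probe passed with all 48 libraries in 1 fit (1.88 and 2.24).

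Embryoid bodies held little PPP1R1B. Probe 568 had no read in 11 of 16 CEPT EB and in 11 of 16 Y27 EB libraries, and at most 11 and 18 reads. Probe 569 ran from 0 to 67 reads in CEPT EB (median 8.5) and from 0 to 28 in Y27 EB (median 6). The gene's mean was 1.48% of hESC in CEPT EB and 0.900% in Y27 EB, and both overlapped ectoderm. Y27 EB lay below mesoderm, by -4.30 ± 0.80 for 569 (edgeR adjusted p = 9.83e-06) and -4.19 ± 1.04 for 568 (adjusted p = 4.94e-04), with no overlap between libraries. Against ectoderm Y27 EB gave -0.97 (95% interval -2.82 to 0.89) for 569 and -0.28 (-2.92 to 2.35) for 568, and neither passed. Probe 568 had 7 ectoderm reads and reached the filter through mesoderm, not through the 2 groups compared, so its value decides nothing here. CEPT EB was not tested against the lineages for this gene, because its level in CEPT EB had entered the choice. The libraries of the EB arms overlapped in this gene, so the choice may also have favoured a low level in Y27 EB. The p-values of Y27 EB are to be read with that limit.

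LECT1, the chondromodulin gene, had the most reads of 424, with 1514, 2302, 1348 and 1552 in hESC. Probe 422 had 282, 364, 235 and 267 and probe 423 had 130, 171, 93 and 119. The embryoid bodies came next. Probe 424 ran from 215 to 862 reads in CEPT EB (median 392) and from 26 to 972 in Y27 EB (median 534.5), where the 26 reads belong to the shallow replicate 15. Its level in hESC was 875 ± 71.5 CPM (SD, n = 4). CEPT EB had 119 ± 43.6 CPM and Y27 EB 104 ± 30.6 CPM (SD, n = 16 per arm). No EB library lacked this probe, and all lay below hESC, whose mean was 7.36 and 8.44 times as high. The ratios of hESC to CEPT EB were 9.33 for 422 and 8.08 for 423.

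In mesoderm LECT1 424 had 123, 144, 87 and 158 reads, 422 had 25, 22, 24 and 39, and 423 had 6, 8, 17 and 21. Ectoderm had 32, 10, 11 and 14 reads of 424, with replicate 1 the highest, 2, 4, 3 and 5 of 422, and 3, 3, 0 and 1 of 423. Endoderm had 9, 2, 1 and 1 reads of 424, 0, 0, 1 and 2 of 422, and 3, 0, 0 and 0 of 423. The summed gene stepped down from mesoderm (5.69% of hESC) to ectoderm (0.757%) to endoderm (0.186%), with no overlap between neighbours in this order. The ratio of hESC to endoderm was 630 for 424 (pooled ratio 634, 95% counting interval 370 to 1191). As 9 of the 13 endoderm reads are in replicate 1, the ratio was 1542 without that library. On 3 endoderm reads each, the pooled ratio was 469 for 422 (95% counting interval 160 to 2279) and 210 for 423 (71.4 to 1020).

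The tests placed ectoderm below mesoderm and below both EB arms for LECT1. Ectoderm against mesoderm gave -2.58 ± 0.32 for 424 (edgeR adjusted p = 9.40e-07), and -2.62 and -2.50 for 422 and 423. LECT1 423 reached the filter on low counts only through the hESC libraries, the group it was chosen for, and was not tested once these were left out of the fit. In ectoderm against mesoderm 7 of 7 probes of the 3 genes passed, 2 higher and 5 lower, where 80.2% of all probes passed, 42% higher and 38.2% lower. With hESC left out of the fit, an alternative chosen after seeing the data, 6 of 6 passed. Both counts are close to that background. CEPT EB against ectoderm gave 4.21 ± 0.39 for 424 (edgeR adjusted p = 8.68e-13), 3.60 for 422 and 3.61 for 423, so 3 of the 5 SYT6 and LECT1 probes passed where 69.9% of all probes did. Y27 EB against ectoderm gave 4.01 ± 0.38 for 424 (edgeR adjusted p = 2.67e-12), 3.06 for 422 and 3.65 for 423. With SYT6 996, the 3 made 4 of 7 probes, against 68.5% of all. Of the 7, PPP1R1B 568 reached the filter through mesoderm and not through Y27 EB or ectoderm. Both shares are near or under the background. All 3 LECT1 probes were higher in each arm, where 36.3% (CEPT EB) and 36.1% (Y27 EB) of all probes were.

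Between EB and mesoderm 1 of the 3 LECT1 probes passed in each arm. LECT1 424 was higher in CEPT EB by 1.62 ± 0.31 (edgeR adjusted p = 1.64e-05) and in Y27 EB by 1.41 ± 0.31 (adjusted p = 1.03e-04). LECT1 422 gave 0.93 (95% interval -0.03 to 1.89) and 0.39 (-0.54 to 1.32), and 423 gave 1.00 (-0.39 to 2.39) and 1.04 (-0.35 to 2.43), none of which passed. LECT1 422 passed in CEPT EB without its replicate 3 (1.01, edgeR adjusted p = 0.0355) and with reference gene scaling (1.41), under which LECT1 423 passed in Y27 EB (1.62). In CEPT EB 2 of 5 probes passed against 70.9% of all probes, and in Y27 EB 4 of 7 against 68.2%. The intervals of the 3 LECT1 probes overlap within each arm.

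**Figure D2:**
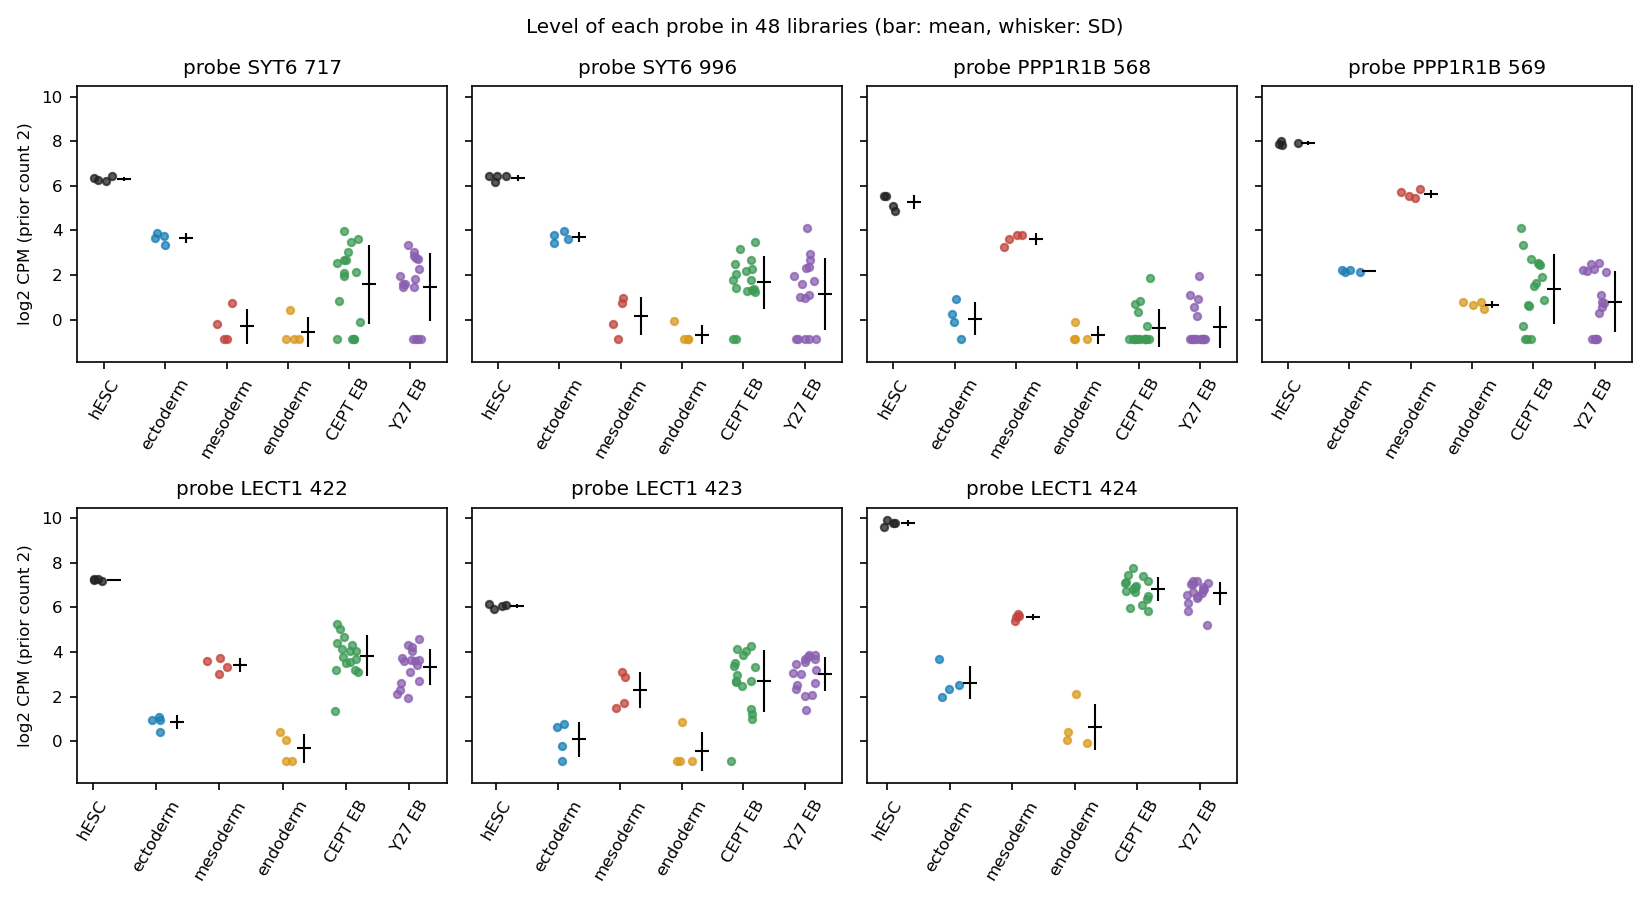
Log2 CPM (prior count 2) of each probe in 48 libraries by group (points; the bar is the mean and the whisker the SD). Points at the bottom near -0.88 are libraries with no read; the hESC points lie above all others in every panel, and the second-highest group differs between the genes.

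The 2 starting treatments of the embryoid bodies were compared over 32 libraries. None of the 5 probes tested passed, and none had an unadjusted p under 0.05 in edgeR, where 23.6% of 867 probes were called; DESeq2 also called none of the 5. The log2 fold change of CEPT EB over Y27 EB was 0.18 for LECT1 424 (95% interval -0.16 to 0.53, edgeR adjusted p = 0.509) and 0.50 for LECT1 422 (-0.09 to 1.10, adjusted p = 0.242). For LECT1 424, the most read of the 7, the interval holds no value beyond 0.53 above or -0.16 below. LECT1 423 gave -0.07 (-0.86 to 0.72), and its sign changed with the scaling. The SYT6 values were 0.39 for 717 (-0.99 to 1.77) and 0.10 for 996 (-1.17 to 1.37), and both intervals include a 2-fold difference. Both PPP1R1B probes failed the filter on low counts here. For 568 the CEPT EB mean was 0.407 CPM and the Y27 EB mean 0.488, and for 569 these means were 3.70 and 2.01, given with no test because the CEPT EB level of this gene had entered the choice.

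**Figure D3:**
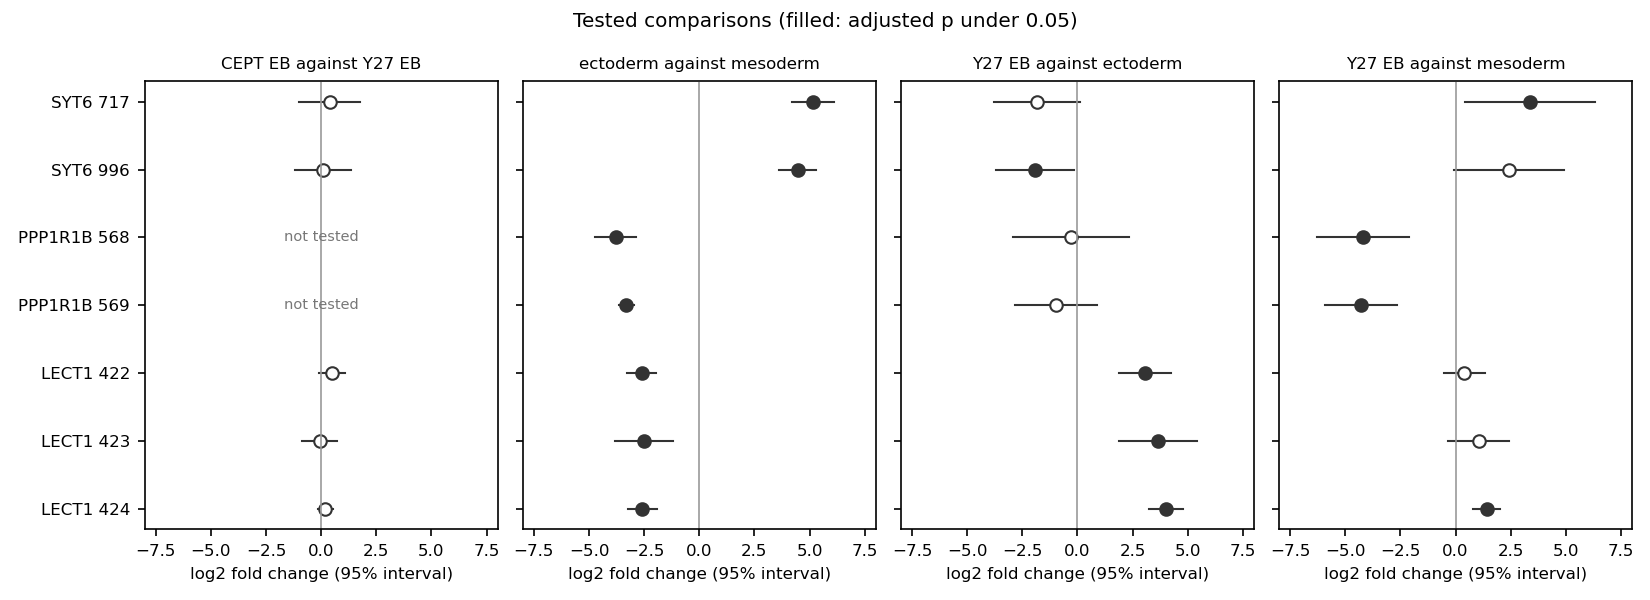
Log2 fold changes with 95% intervals of the 7 probes in 4 tested comparisons (edgeR; filled points have an adjusted p under 0.05). The SYT6 and PPP1R1B points lie on opposite sides of 0 in ectoderm against mesoderm, LECT1 lies to the right in Y27 EB against ectoderm, and no point is filled in CEPT EB against Y27 EB. The interval of SYT6 717 in ectoderm against mesoderm rests on 4 mesoderm reads and understates the uncertainty.

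Gene lists show how the panel's other genes of these functions behaved. Of 17 neuronal and synaptic genes on the panel (40 probes past the filter), none had a probe with hESC above all 5 groups. Neither did any of 3 cartilage genes (7 probes). Of the dopamine and cAMP list only FOXP2 was on the panel. It had 0 CPM in hESC and 6.58 in Y27 EB, its highest group, so the panel gives no real comparison for PPP1R1B. Of the undifferentiated-state list, 23 of 59 probes in 11 of 23 genes had hESC above all 5 groups. The genes were CD9, CXCL5, DNMT3B, DPPA2, DPPA4, GDF3, IDO1, L1TD1, LCK, NANOG and ZFP42. The background is 8.37% of probes, but the lists were drawn up with earlier results of these data known. Their counts are therefore not read against it. MAP2, a neuronal microtubule protein, had 32.6 CPM in hESC and 519 in ectoderm, and DLG4 had 83.2 and 319. The neuronal genes were not alike: TUBB3 had 1839 CPM in hESC and 127 in ectoderm, and NCAM1 was highest in mesoderm (413 CPM). COL2A1, the main collagen of cartilage, had 19.9 CPM in hESC, 509 in CEPT EB and 595 in Y27 EB. HAPLN1, which links the cartilage matrix, had 0.992 CPM in hESC and 45.4 in CEPT EB. For none of these neuronal and cartilage genes was hESC the top group. SYT6, PPP1R1B and LECT1 were chosen for their height in hESC, so this contrast follows from the choice and is not a result. In ectoderm against mesoderm, 14 of 26 neuronal probes were higher and 10 lower (median log2 fold change 1.27, against 0.0049 over all probes), where 42% of all probes were higher and 38.2% lower. By gene, 6 had a probe that was higher and 6 a probe that was lower, of 13 tested. Of 7 cartilage probes 5 were higher and 2 lower there. In CEPT EB against Y27 EB, 3 of 35 neuronal probes were higher and 4 lower, and 1 of 7 cartilage probes was higher, where 23.6% of all probes were called either way.

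The genes closest to each member were found by the correlation of log2 CPM over the 48 libraries, between the highest probe of each gene, among 374 genes. Libraries share the 6 group levels, so these values describe a shared pattern of groups. SYT6 was most like MT1F (r = 0.754), TRIM22 (0.750), LCK (0.731), FGFBP3 (0.659) and JARID2 (0.658). FGFBP3 and TRIM22 were higher in ectoderm than in hESC, at 1533 against 747 CPM and 101 against 66.4. LCK, a tyrosine kinase known from T cells, had 45.7 CPM in hESC and 1.64 in ectoderm. These 3 thus differ from SYT6 in the ectoderm level relative to hESC. PPP1R1B was most like HSPD1 (0.871), GAPDH (0.848), PYGL (0.841), PLBD1 (0.821) and EIF5A (0.796), genes of protein folding, glycolysis, glycogen use and translation among them. PYGL, the liver-type glycogen phosphorylase, was higher in mesoderm (1798 CPM) than in hESC (1151). LECT1 was most like MT1X (0.938), MT1G (0.873), ZFP42 (0.856), VASH2 (0.827) and DPPA4 (0.805). MT1X, a metal-binding metallothionein, had 1548 CPM in hESC, 376 in CEPT EB, 220 in Y27 EB, 210 in mesoderm, 32.9 in ectoderm and 6.25 in endoderm, the order that LECT1 has. Within the 32 EB libraries, group means removed, r with LECT1 was 0.580 for MT1X and 0.564 for MT1G, and with VASH2 it was -0.28. The 3 genes had r of 0.566 (SYT6 and PPP1R1B), 0.442 (SYT6 and LECT1) and 0.352 (PPP1R1B and LECT1) among themselves.

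**Figure D4:**
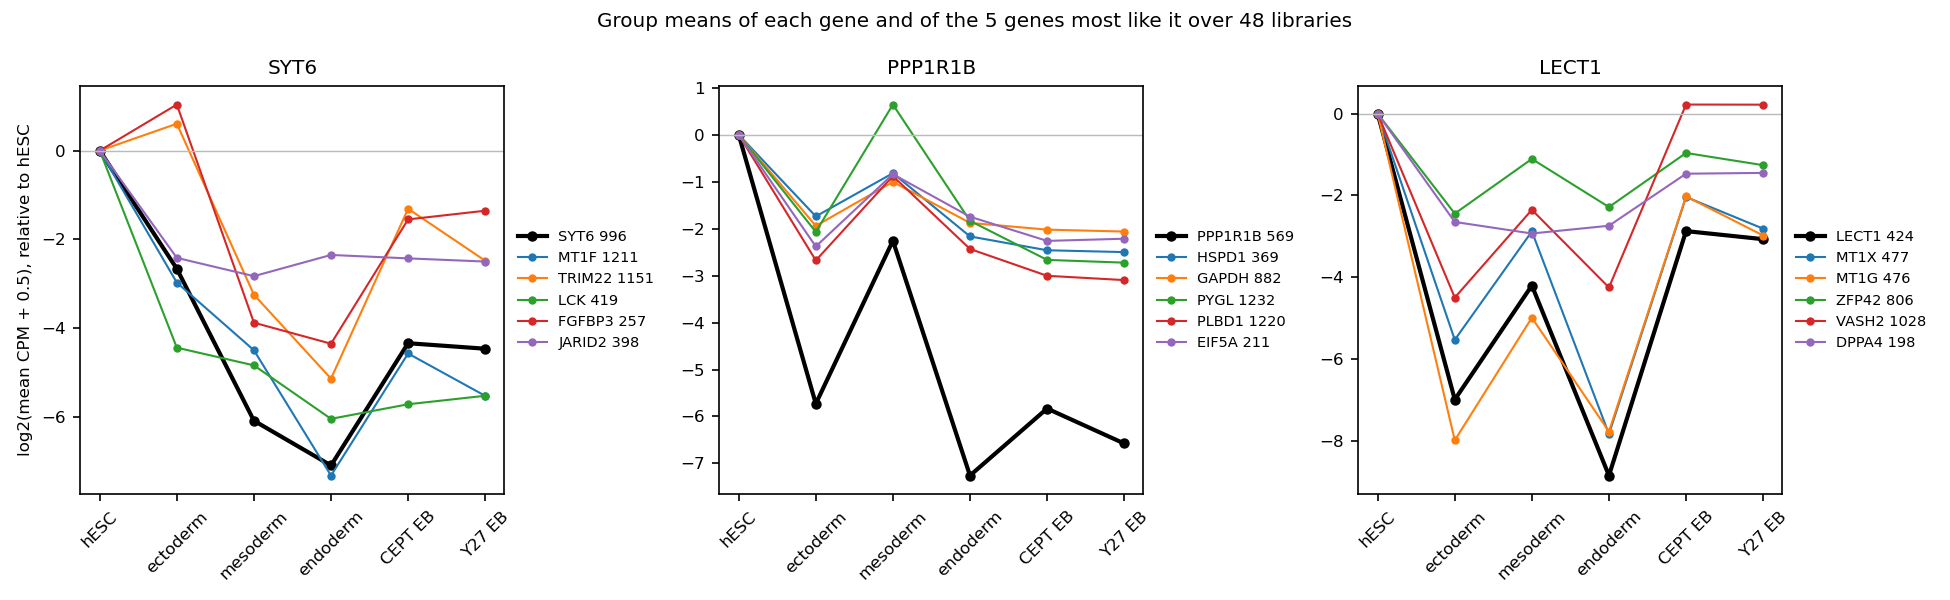
Group means as log2(mean CPM + 0.5) relative to hESC for the highest probe of each gene (black) and of the 5 genes most like it over 48 libraries (colours; lines join groups for the eye only). MT1X has the group order of LECT1, while the 5 genes beside PPP1R1B lie less far from hESC than it does, with PYGL above hESC in mesoderm.

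GAPDH itself had 102061 CPM in hESC and 24451 to 50901 in the other groups, so the differences from hESC depend on the scale. A second scale used 8 probes of reference genes in place of TMM. GAPDH is on the reference gene list, so this scale carries its high level in hESC. With it, hESC minus ectoderm on the log2 CPM scale went from 2.66 to 1.13 for SYT6 717, and hESC minus mesoderm from 2.26 to 1.74 for PPP1R1B 569. For LECT1 424, hESC minus CEPT EB went from 2.96 to 1.70. In each of the 5 groups all 7 probes stayed below hESC under this scaling too.

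Last, the share of a gene's reads taken by 1 of its probes was followed, a comparison chosen after seeing the data. SYT6 717 took 49.3% ± 2.27 of the gene's reads in hESC and 49.4% ± 5.41 in ectoderm (SD, n = 4 each). LECT1 424 took 80.1% ± 1.07 in hESC and 75.8% ± 6.77 in mesoderm (n = 4 each), with 83.3% ± 7.48 for CEPT EB and 83.9% ± 4.56 for Y27 EB (n = 16 per arm). PPP1R1B 568 took 13.9% ± 2.68 in hESC and 19.4% ± 3.38 in mesoderm (SD, n = 4 each; exact two-sided permutation p = 0.0857, adjusted p = 0.178 over 8 tests). The lowest p of the 8 was 0.0161 for LECT1 424 in mesoderm against Y27 EB (exact permutation, adjusted p = 0.129). None passed after adjustment, and the groups' libraries overlapped in all 8. The comparisons of 4 with 4 libraries, which include those of SYT6 and PPP1R1B, could not have passed by themselves over 8 tests. Their lack of a call is therefore not read as equal shares. Among 22 relations within the EB arms, also chosen after seeing the data, only LECT1 422 with 423 in CEPT EB passed (n = 16, Pearson r = 0.796, permutation p = 4.20e-04, adjusted p = 0.00924; Spearman rho = 0.668, permutation p = 0.00607, adjusted p = 0.0690). Its r was 0.539 without the 2 libraries farthest from the median. In Y27 EB the same probes had r = 0.164 and rho = 0.118 (permutation p = 0.542 and 0.664, adjusted p = 0.702 and 0.812; r = -0.10 without the 2 farthest).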

How the data were processed

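Counts of reads per probe pair were deposited by the authors for 48 RASL-Seq libraries; per the labels they come from a custom aligner, whose version is not given in the sources used here, with no normalization. The submitters' processing notes list DESeq2 and hg38 with no stated role. In the merged file, 48 columns were identical to the sample tables, and 16 others that no sample label matched were not used.

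The members and gene lists were chosen with earlier results of these data known. Probes of the 3 genes were all named; the genes most like each were the 5 with the highest correlation, among probes with a mean of at least 50 reads in a group. The fits used edgeR 4.0.16 in R 4.3.3 (filterByExpr, TMM, robust quasi-likelihood test, two-sided, Benjamini-Hochberg, threshold 0.05) over the 32 EB libraries, the 16 control libraries, or 40 libraries (EB, ectoderm, mesoderm). All groups' levels used TMM over 48 libraries. Counting intervals (95%) cover counting error only. Alternatives were other scalings, filters, DESeq2 1.42.0, 1 joint fit, summed probes, a replicate block and leaving out each library. Fits were tested on simulated data. Same-numbered libraries did not correlate above 0.1 in every pair, though between directed lineages they did on average. The main fits did not use the numbers as pairs.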

Additional observations from a re-analysis of the deposited data

Results flagged for a closer look

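Groups of 4 libraries were checked for 1 library far from the rest, with Dixon's ratio at its 95% critical value, over 34 sets of values. It marked 5 of them. Chance marks about 1 in 20, but in 4 of the 5 the ratio is 1 by construction, because 3 libraries are tied at no reads, so the count is not compared with that rate. In hESC, SYT6 996 was lowest in replicate 2, where its log2 CPM was 6.15 (the remaining 3 had 6.42 to 6.44), while SYT6 717 in that library had 76.0 CPM against 74.9 to 85.9. The other 4 are endoderm libraries that held the only reads of a probe, beside 3 libraries with none (log2 CPM -0.88). They were LECT1 423 in replicate 1 (0.87, 3 reads), PPP1R1B 568 in replicate 4 (-0.10, 1 read), SYT6 717 in replicate 2 (0.43, 2 reads) and SYT6 996 in replicate 1 (-0.040, 1 read).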

How the results depend on the processing

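All 7 probes kept hESC above every other group under each alternative run, and no difference from hESC changed sign. Low counts limit most other values. Asking for at least 10 reads in every library left 0 of 7, 0 of 2 and 0 of 2 calls for ectoderm against mesoderm, ectoderm against endoderm and mesoderm against endoderm (all probes 428, 411 and 404, from 724, 720 and 688), since the probes were no longer tested. It left 1 call each for Y27 EB against ectoderm and mesoderm and CEPT EB against ectoderm and mesoderm (all probes 380, 385, 383 and 398, from 684, 681, 698 and 708). In the EB comparison 339 probes were called with library totals alone and 133 with reference genes, from 205. With 1 fit of all 48 libraries PPP1R1B had 0 calls in ectoderm against endoderm, and leaving out 1 library gave 1 to 2. CEPT EB against mesoderm had 4 SYT6 and LECT1 calls with reference genes and 1 to 3 with a library left out, from 2. CEPT EB against ectoderm had 2 genes called with probes summed, from 1. Signs turned in values that passed no test: LECT1 423 in the EB comparison (0.034 with median-ratio factors, 0.0044 with upper quartile factors, 0.035 with DESeq2, -0.19 to 0.035 with 1 library left out), SYT6 996 there (-0.11 to 0.58 with 1 library left out), and, with library totals alone, LECT1 424 (-0.11), SYT6 717 (-0.034), SYT6 996 (-0.30) and PPP1R1B 568 in Y27 EB against ectoderm (0.22; -0.98 to 0.53 with 1 library left out). Library totals alone moved the median of all probes by -0.31 in the EB comparison, and reference genes moved it by 0.72 in ectoderm against mesoderm. The cause was not tested. Leaving hESC out of the lineage fit, chosen after seeing the data, gave 6 calls of 6 tested for ectoderm against mesoderm and 2 of 2 PPP1R1B calls in each comparison with endoderm. Between the EB arms, 3 of 16 same-numbered pairs of libraries correlated above 0.1, with a mean r of -0.0042. Between ectoderm and mesoderm 3 of 4 did, with a mean r of 0.26 against -0.078 for other numbers. For ectoderm and endoderm these means were 0.21 and -0.068, and for mesoderm and endoderm 0.18 and -0.056. Same-numbered libraries of the directed lineages thus deviated together on average, and the origin of this was not tested. With the replicate block, CEPT EB against mesoderm had 1 SYT6 and LECT1 call from 2, Y27 EB against ectoderm 6 from 4, and Y27 EB against mesoderm 3 from 4, while ectoderm against mesoderm had 7 from 7. Lineage libraries have replicate numbers 1 to 4 only, so blocked contrasts of EB with lineages rest mainly on EB libraries with these numbers. Whether same-numbered EB and lineage libraries belong together was not checked. Under the block SYT6 717 against mesoderm was 1.87 in Y27 EB and 2.10 in CEPT EB, and neither passed.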

Other observations

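Among the genes most like LECT1 and SYT6, 3 metallothioneins shared their drop outside hESC. MT1G had 355 CPM in hESC, 86.9 in CEPT EB, 44.5 in Y27 EB and 0.894 in ectoderm. MT1F had 1197 CPM in hESC, 152 in ectoderm and 7.03 in endoderm. L1TD1, an RNA-binding protein of pluripotent cells, behaved differently from the 3 genes in endoderm, where it had 2341 CPM against 2711 in hESC. TUBB3, a tubulin of neurons, had 1839 CPM in hESC, 127 in ectoderm and 12016 in Y27 EB.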
